A study of Mus musculus with 6 samples.

Results

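The sirtuins and the enzymes that supply their cosubstrate NAD were examined in livers of wild-type mice (Mus musculus) with diet-induced steatohepatitis. The 10 genes, taken from the deposited table by symbol, were the 7 sirtuins Sirt1 to Sirt7, the NAD precursor enzymes Nampt and Naprt, and the nicotinamide methyltransferase Nnmt. All 10 were among the 22173 symbols of the table. The question behind the series was how the compound DDK, a limonoid by its title, protects the steatotic liver, and the title connects it with the deacetylation state of SDHA, a catalytic subunit of succinate dehydrogenase. Livers of 3 DDK-treated mice were compared with livers of 3 vehicle-treated mice by RNA-seq. Mice of both groups were wild type, were 6 weeks old when the HFHC diet began and were fed it for 16 weeks, and received DDK or vehicle during the last 4 weeks. HFHC and DDK are spelled out nowhere in the labels, which also name no sex, strain or dose. No group without the HFHC diet was analysed here. Transcripts were measured, not protein acetylation, enzyme activity or NAD itself.

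Sirtuins are deacylases that split NAD each time they remove an acyl group from a protein, releasing nicotinamide. SIRT1, SIRT6 and SIRT7 act mainly in the nucleus, SIRT2 mainly in the cytosol, and SIRT3, SIRT4 and SIRT5 in mitochondria, where SIRT3 is the main deacetylase. NAD is rebuilt from nicotinamide by NAMPT, the rate-limiting salvage enzyme, from nicotinic acid by NAPRT, and in liver also from tryptophan. NNMT methylates nicotinamide with the methyl group of S-adenosylmethionine, which takes nicotinamide out of salvage. The liver expresses all of these routes and exports nicotinamide to other tissues.

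Expression was given as FPKM, fragments counted relative to gene length and library total, and these totals were 26576291 to 30237490 fragments for DDK and 33963898 to 36105315 for vehicle. The test was limma on log2(FPKM + 1) over 10681 genes that reached 0.5 FPKM in 3 or more livers, with Benjamini-Hochberg adjustment over all of them and a threshold of 0.05. A fold change is on that scale, which understates changes of low genes. Of all genes tested, 1093 were higher and 3234 lower in DDK livers, and the median log2 fold change was -0.23. That balance depended on how the libraries were scaled: median-ratio scaling gave 1968 higher and 1643 lower, quantile normalization 1886 and 1743, a correction for gene length 1722 and 1844, removal of the 20 most abundant genes 1409 and 2462, and rescaling to TPM 628 and 5111, and the medians of all genes were then 0.00, 0.00, -0.01, -0.14 and -0.44. Vehicle replicate 1 stood apart from the other vehicle livers on the first principal component, at 14.1 against 36.2 and 40.01, with the DDK livers between -36.4 and -23.6. The liver label held, with all 12 hepatocyte markers detected and a summed FPKM of 64506 to 67745 in DDK and 39580.5 to 51209 in vehicle livers.

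All 10 genes passed the filter. Nnmt, Naprt and Sirt7 rose in DDK livers and Nampt fell, while the other 6 sirtuins did not pass the test. These 4 of 10 genes compare with 40.5% of all genes tested, so the share of calls was that of the table as a whole. In the table as a whole 10.2% of genes were called higher and 30.3% lower. The DDK and vehicle values did not overlap for 6 of the 10 genes, against 53.3% of all genes. Higher without overlap were 4 (Sirt4, Sirt7, Naprt and Nnmt), against 14.1% of all genes, and lower without overlap were 2 (Sirt5 and Nampt), against 39.2%. Replicates are separate mice, so p-values measure the spread between these animals. The median log2 fold change was 0.04 over the 7 sirtuins and over the 10 genes, beside -0.23 for all genes tested.

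**Figure D1:**
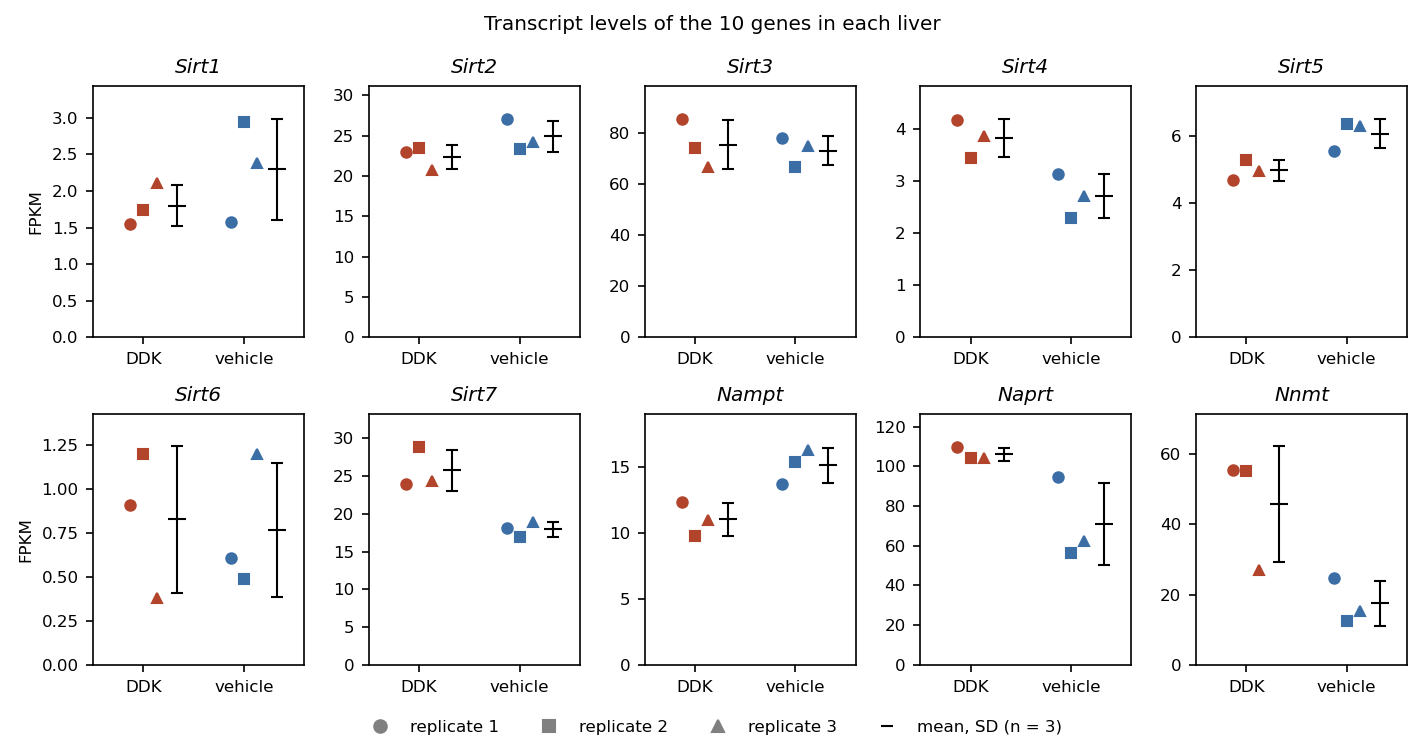
FPKM of the 10 genes in each liver, with DDK on the left and vehicle on the right of each panel, symbols for replicates 1 to 3 and black bars for the mean and SD of 3 livers. Nnmt lies between 26.9 and 55.5 in DDK livers and between 12.4 and 24.8 in vehicle livers, and the Sirt3 values of the groups overlap.

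Nnmt changed more than any other of the 10 genes. Its FPKM was 55.5, 55.2 and 26.9 in DDK replicates 1 to 3, against 24.8, 12.4 and 15.4 in vehicle replicates 1 to 3. The groups did not overlap, but DDK replicate 3 and vehicle replicate 1 came close to each other, and DDK replicate 3 had less than either of the other DDK livers. Nnmt averaged 45.8 ± 16.4 in DDK and 17.5 ± 6.46 in vehicle livers (SD, n = 3 each), a ratio of means of 2.62. The log2 fold change was 1.32 ± 0.30 (SE; limma adjusted p = 0.0084), higher than that of 99.3% of the genes tested. The Nnmt gene lies on chromosome 9 at 48591877 to 48605153 on GRCm38 (minus strand, GENCODE M21). Nnmt kept its call under all 20 alternatives, with log2 fold changes of 1.11 to 1.68 and adjusted p of 0.000314 to 0.0486.

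Nnmt is also abundant in fat tissue and in fibroblasts, so markers of those cells were read beside it. Stellate cell markers, 12 genes in all, summed to 61.4 to 85.7 FPKM in DDK and 138 to 182 in vehicle livers, the opposite direction to Nnmt, and 8 of the 11 tested were lower. The 6 adipocyte markers summed to 61.9, 60.3 and 2.69 in DDK replicates 1 to 3. In vehicle replicates 1 to 3 the sums were 39.7, 89.4 and 135. Nearly all of each sum was Cfd, the complement factor adipsin, except in DDK replicate 3, with Cfd at 1.4. Cfd did not pass the test (log2 fold change -1.95, limma adjusted p = 0.154). Adrb3, the other adipocyte marker tested, went in the direction of Nnmt and passed (1.12, adjusted p = 0.00358). Adrb3 stood at 3.24, 2.51 and 1.29 in DDK and 0.488, 0.394 and 0.59 in vehicle livers. Lep was at 0 in all 6 livers, and Adipoq and Plin1 were at 0 in all DDK livers and stood at 0.0956 and 0.0615 in vehicle replicate 3, with 0 in the other vehicle livers. The hepatocyte marker sums given above moved in the same direction as Nnmt, Naprt and Sirt7. Of the 12 hepatocyte markers, 6 were higher and 1 lower by limma as deposited, and 4 higher and 3 lower after quantile normalization. Their part in the values of these 3 genes was not tested. In bulk liver RNA, a change in the number of cells of a type and a change of RNA per cell cannot be told apart. The genes with the pattern most like that of Nnmt over the 6 libraries were Pcbd2 (Pearson r = 0.997), Naxe (0.995) and Emc9 (0.995). They were chosen as the 3 highest among the genes tested, with predicted genes and pseudogenes left out. Naxe, for example, stood at 97.4, 96.9 and 78.4 FPKM in DDK livers against 78.6, 62.2 and 64.3 in vehicle livers. These correlations describe 6 libraries that share the treatment difference.

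Naprt, which makes the first NAD precursor from nicotinic acid, had the highest mean of the 10 transcripts over the 6 livers. Its FPKM was 110.0, 104 and 104 in DDK replicates 1 to 3, against 94.6, 56.3 and 62.4 in vehicle replicates 1 to 3. The DDK livers were nearly alike, and vehicle replicate 1 lay between them and the other vehicle livers. Naprt averaged 106 ± 3.5 in DDK and 71.1 ± 20.6 in vehicle livers (SD, n = 3 each), and its log2 fold change was 0.61 ± 0.18 (limma adjusted p = 0.0257). Without vehicle replicate 1 the change was 0.83 (adjusted p = 0.00109). The call was lost on leaving out DDK liver 1 (0.0761) or 2 (0.0742) or vehicle liver 2 (0.0889) or 3 (0.10), without a filter on low values (0.0733) and after rescaling to TPM (0.0765).

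The Naprt gene lies on chromosome 15 at 75890956 to 75894481 (minus strand). Of its 2344 exon bases, 277 are shared with Eef1d, a translation elongation factor gene on the same strand. Eef1d itself averaged 56.7 FPKM in DDK and 33.7 in vehicle livers. The length recovered from the Naprt FPKM values was 1891 bases, and whether these include the shared bases is not known. The labels do not say how fragments in shared bases were counted, and the part of Eef1d in the Naprt value was not tested.

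Nampt, the salvage enzyme, went the other way from Naprt. Its FPKM was 12.3, 9.79 and 11.0 in DDK livers, against 13.7, 15.4 and 16.3 in vehicle livers. Every DDK liver lay below every vehicle liver. Nampt averaged 11.0 ± 1.26 in DDK and 15.2 ± 1.34 in vehicle livers (SD, n = 3 each), a ratio of 0.727 (log2 fold change -0.43 ± 0.14, limma adjusted p = 0.0329). The Nampt gene lies on chromosome 12 at 32819545 to 32853349 (plus strand). This call depended on the scaling. The log2 fold change was -0.14 after median-ratio scaling (adjusted p = 0.401), -0.19 after quantile normalization (0.24), -0.12 after correction for gene length (0.441), -0.31 without the 20 most abundant genes (0.0931) and -0.67 under TPM (0.00889). Relative to the median of all genes as deposited, Nampt stood at -0.20. Leaving out DDK liver 1 (0.0507), 2 (0.135) or 3 (0.0678), or vehicle liver 2 (0.088) or 3 (0.118), also ended the call.

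Nampt is also made by neutrophils and macrophages. The summed FPKM of the 7 neutrophil markers was 2.54 to 8.92 in DDK and 11.1 to 14.7 in vehicle livers, most of it S100a8 and S100a9. Only 3 of the 7 were tested, and 1, S100a9, was lower by limma. S100a8 (adjusted p = 0.14) and Csf3r (0.0763) did not pass. For 14 macrophage and Kupffer cell markers the sum was 189.7 to 478 in DDK and 631 to 1047 in vehicle livers. By limma, 9 of the 14 were lower. None of the 14 was at 0 in all libraries. These sums moved in the same direction as Nampt, and their part in its value was not tested.

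Ratios within a library are not changed by a factor applied to the whole library, such as the median-ratio factor. The ratio of Naprt to Nampt FPKM was 8.94, 10.7 and 9.46 in DDK livers, against 6.91, 3.65 and 3.82 in vehicle livers, a pair chosen after the values were seen. Vehicle replicate 1 was again the nearest to the DDK livers. The difference of the log2 ratio was 1.08 (two-sided exact permutation p = 0.1), and 0.1 is the smallest p that 3 against 3 livers allow. Every DDK liver lay above every vehicle liver for Naprt and below for Nampt, so the groups could not overlap in this ratio. Its p was fixed by the values of both genes and adds nothing to them. The ratio of Nnmt to Nampt was 4.51, 5.64 and 2.46 in DDK and 1.81, 0.802 and 0.943 in vehicle livers, a difference of 1.84 on the log2 scale. Its groups could not overlap either, because Nnmt was higher and Nampt lower in every DDK liver. For Nnmt over Naprt the groups overlapped, with 0.504, 0.528 and 0.26 in DDK and 0.262, 0.22 and 0.247 in vehicle livers (exact p = 0.2).

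Among the mitochondrial sirtuins, Sirt3 made up most of the sirtuin transcript pool and its levels did not separate the groups. Sirt3, whose product is the deacetylase most often linked to SDHA, stood at 85.4, 74.0 and 66.5 FPKM in DDK livers, against 77.7, 66.5 and 74.6 in vehicle livers. Livers of both groups covered nearly the same range. The mean was 75.3 ± 9.54 in DDK and 72.9 ± 5.82 in vehicle livers (SD, n = 3 each). The log2 fold change was 0.04 with a 95% interval of -0.26 to 0.34 (limma adjusted p = 0.823), and over the alternatives it ran from -0.19 under TPM to 0.35 after median-ratio scaling, with no adjusted p below 0.125. Sirt3 held 55.7% ± 3.24 of the summed FPKM of the 7 sirtuins in DDK and 57.1% ± 1.08 in vehicle livers. The Sirt3 gene lies on chromosome 7 at 140863666 to 140882309 (minus strand). Of its 5973 exon bases in GENCODE M21, 342 are shared with Psmd13 and 418 with Ric8a on the opposite strand. Psmd13 averaged 41.0 FPKM in DDK and 60.9 in vehicle livers, and Ric8a 8.79 in DDK and 8.15 in vehicle livers. The part of these neighbours in the Sirt3 value was not tested. The library kit does not mark strand, so reads in the shared bases cannot be assigned by strand. The length recovered from the Sirt3 FPKM values was 1575 bases, and whether these include the shared bases is not known.

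Sirt4 and Sirt5, the other mitochondrial members, had groups that did not overlap, in opposite directions, but neither passed the test. Sirt4, which acts on glutamate and fatty acid metabolism, had 4.18, 3.45 and 3.88 FPKM in DDK and 3.15, 2.3 and 2.71 in vehicle livers. All DDK livers lay above all vehicle livers, but the test missed the threshold (log2 fold change 0.38 ± 0.15, 95% interval 0.05 to 0.71, limma adjusted p = 0.0615). It passed after median-ratio scaling (0.61, adjusted p = 0.0111), quantile normalization (0.0107), length correction (0.00978) or removal of the 20 most abundant genes (0.0304), with library weights (0.0132) and without vehicle replicate 1 (0.0196), and was 0.23 under TPM. Sirt5, a desuccinylase and demalonylase, had 4.68, 5.29 and 4.97 FPKM in DDK and 5.57, 6.35 and 6.31 in vehicle livers. Here all DDK livers lay below all vehicle livers, again without passing (log2 fold change -0.24 ± 0.13, adjusted p = 0.165), and the value was 0.02 after median-ratio scaling and -0.48 under TPM (adjusted p = 0.0401). The ratio of Sirt4 to Sirt5 was 0.892, 0.653 and 0.78 in DDK and 0.565, 0.362 and 0.43 in vehicle livers, a pair chosen after the values were seen (log2 difference 0.79, exact permutation p = 0.1). Because Sirt4 was higher and Sirt5 lower in every DDK liver, the groups could not overlap in this ratio. Its p was fixed by those values and adds nothing to the tests of both genes.

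Of the nuclear sirtuins, Sirt7 rose. Its product acts in the nucleolus and on chromatin. Sirt7 stood at 24.0, 28.9 and 24.4 FPKM in DDK livers, against 18.1, 16.9 and 18.9 in vehicle livers, with every DDK liver above every vehicle liver. It averaged 25.8 ± 2.73 in DDK and 18.0 ± 1.02 in vehicle livers (SD, n = 3 each), a ratio of 1.43 (log2 fold change 0.49 ± 0.13, limma adjusted p = 0.015). Vehicle replicate 1 was not apart from the other vehicle livers for this gene. The call was lost under TPM (0.27, adjusted p = 0.133), without DDK replicate 2 (0.0771) and without vehicle replicate 2 (0.0536). The Sirt7 gene lies on chromosome 11 at 120618372 to 120625240 (minus strand). Of its 5148 exon bases in GENCODE M21, 124 are shared with Mafg on the same strand. Mafg averaged 9.64 FPKM in DDK and 8.38 in vehicle livers. The length recovered from the Sirt7 FPKM values was 1870 bases, and whether these include the shared bases is not known.

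Sirt1 and Sirt6, the other nuclear members, were the lowest of the 10 transcripts. Sirt1, a deacetylase of histones and transcription factors, had 1.55, 1.74 and 2.11 FPKM in DDK and 1.57, 2.94 and 2.38 in vehicle livers. Vehicle replicate 1 lay among the DDK livers, and the groups overlapped. The log2 fold change was -0.22 (95% interval -0.61 to 0.18, limma adjusted p = 0.335), and it passed without vehicle replicate 1 (-0.39, adjusted p = 0.0497) and with library weights, which gave that library the lowest weight (0.0385). Sirt6, a chromatin deacetylase, had 0.908, 1.2 and 0.378 FPKM in DDK and 0.61, 0.489 and 1.2 in vehicle livers. Only 28 to 78 fragments per DDK library and 41 to 100 per vehicle library stood behind these values, the fewest of the 10 genes. The interval of its log2 fold change, -0.40 to 0.49, was the widest of the sirtuins (adjusted p = 0.878).

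Sirt2, the cytosolic member, had 23.0, 23.5 and 20.7 FPKM in DDK and 27.1, 23.4 and 24.2 in vehicle livers. The groups overlapped, with DDK replicate 2 just above vehicle replicate 2. The log2 fold change was -0.14 (95% interval -0.42 to 0.14, limma adjusted p = 0.375), 0.16 after median-ratio scaling and -0.38 under TPM, where alone it passed (adjusted p = 0.033).

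**Figure D2:**
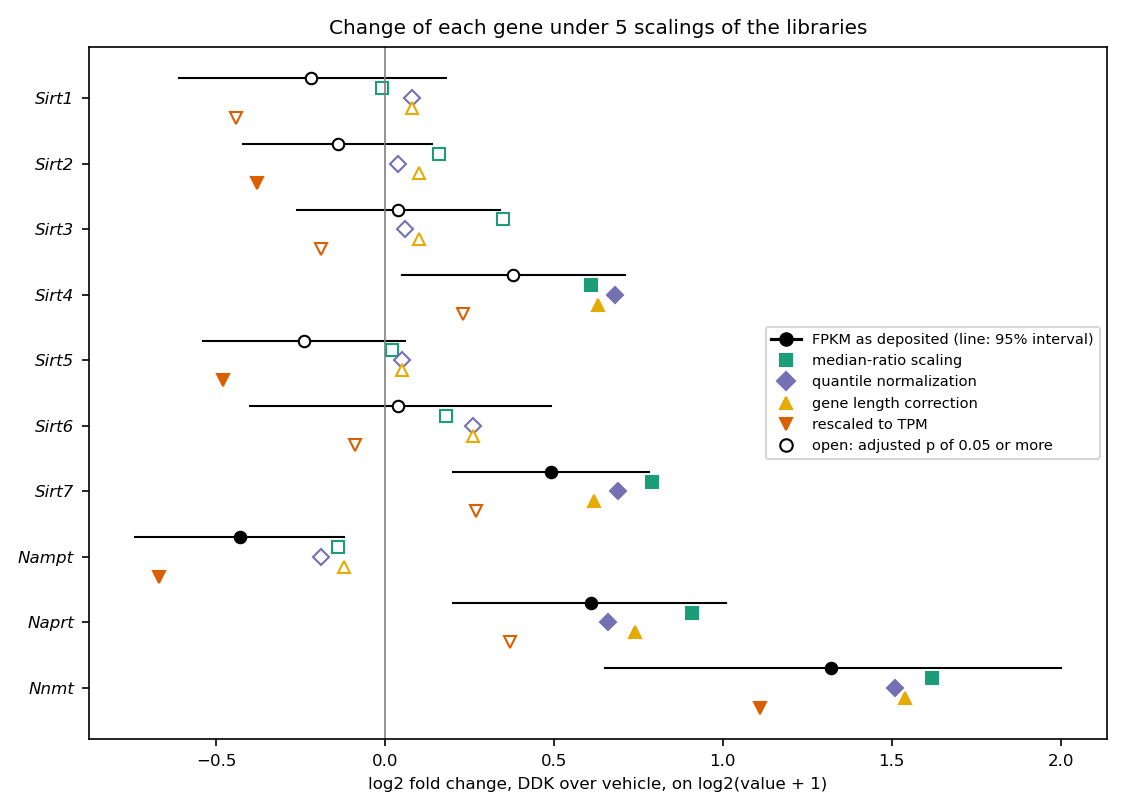
Log2 fold change of each gene, DDK over vehicle, under 5 scalings of the libraries, with filled symbols where the adjusted p is under 0.05 and a black line for the 95% interval of the values as deposited. Nnmt is filled for all 5 sets, while Nampt is filled only as deposited and under TPM.

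In order of level, FPKM being per kilobase and so comparable between genes, Naprt averaged 88.6 over the 6 livers, Sirt3 74.1, Nnmt 31.7, Sirt2 23.7, Sirt7 21.9, Nampt 13.1, Sirt5 5.53, Sirt4 3.28, Sirt1 2.05 and Sirt6 0.797. Neighbours whose ranges overlapped were Naprt and Sirt3, Nnmt and Sirt2, Sirt2 and Sirt7, and Sirt4 and Sirt1. Within the first 3 of these pairs the order went with the group in most livers. Naprt was above Sirt3 in 3 of 3 DDK and in 1 of 3 vehicle livers, Nnmt was above Sirt2 in 3 of 3 DDK and in 0 of 3 vehicle livers, and Sirt2 was above Sirt7 in 0 of 3 DDK and in 3 of 3 vehicle livers. Sirt4 was above Sirt1 in 3 of 3 DDK and in 2 of 3 vehicle livers. The summed FPKM of the 7 sirtuins was 144, 138 and 123 in DDK and 134, 119 and 130.4 in vehicle livers, which overlapped. Within that sum, Sirt7 held 19.1% ± 2.22 in DDK and 14.1% ± 0.507 in vehicle livers, and Sirt2 held 16.6% ± 0.537 in DDK and 19.5% ± 0.856 in vehicle livers (SD, n = 3 each).

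Set against the mean log2(FPKM + 1) of the 7 sirtuins in the same library, 6 of the 10 genes had groups that did not overlap, against 53.7% of all genes tested on the same scale. Nnmt was higher in DDK livers by 1.27 on the log2 scale, Naprt by 0.56 and Sirt7 by 0.44. Nampt stood at -0.48 relative to vehicle, Sirt5 at -0.29 and Sirt2 at -0.19. Each of these 6 reached the smallest exact permutation p that the design allows, 0.1. Sirt4, at 0.33, overlapped on this scale (exact p = 0.2), and Sirt3 differed by -0.01 (exact p = 0.8).

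**Figure D3:**
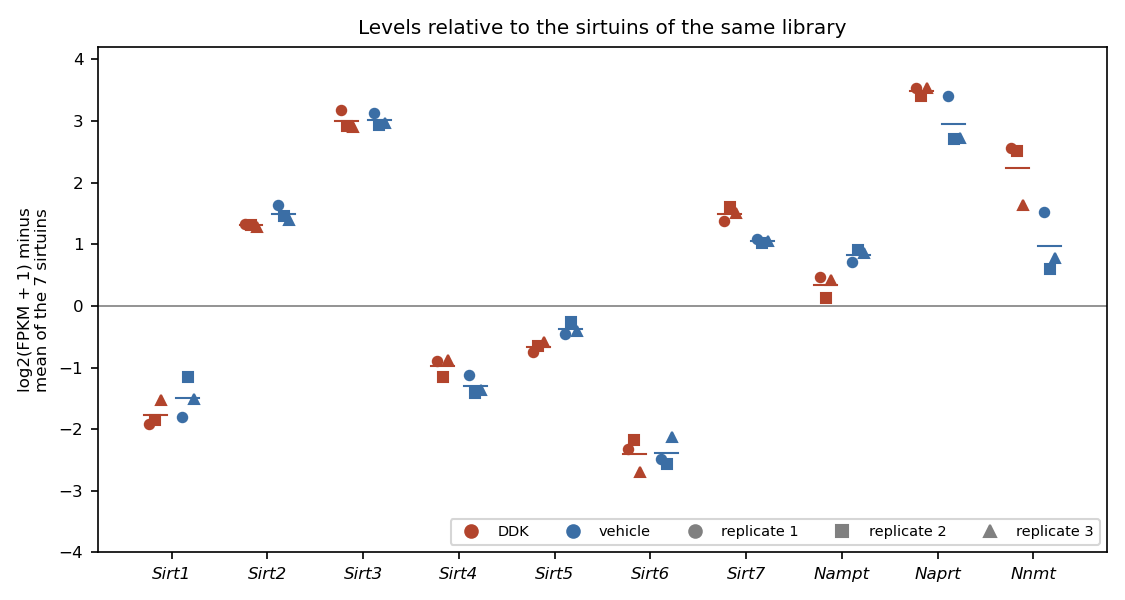
Log2(FPKM + 1) of each gene minus the mean of the 7 sirtuins of the same library, with DDK left of vehicle for each gene, symbols for replicates and lines for group means. Sirt3 sits near 3.0 in both groups, and Nnmt has a mean of 2.23 in DDK and 0.96 in vehicle livers.

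Start-site sequences of RefSeq (GRCm38.p6) were matched for 8 of the 10 genes, with Naprt and Nnmt not matched. Each covers 250 bases before to 50 bases after the start, 300 in all. Those of Sirt7, which rose, of Nampt, which fell as deposited, and of Sirt3 at its upstream start are shown because the comparison turns on these transcripts, a called sirtuin, the salvage enzyme and the main mitochondrial deacetylase. Capitals mark matches, on either strand, to 6 motifs. They were the E-box CACGTG of the clock proteins, the GGGCGG box bound by SP1, the TATAAA box of core promoters, the antioxidant response element core TGACNNNGC, the nuclear receptor motif AGGTCA, and the related receptor motif spelled AGTTCA. Matches of different motifs may overlap.
Sirt7, chr11:120624965-120625264, minus strand: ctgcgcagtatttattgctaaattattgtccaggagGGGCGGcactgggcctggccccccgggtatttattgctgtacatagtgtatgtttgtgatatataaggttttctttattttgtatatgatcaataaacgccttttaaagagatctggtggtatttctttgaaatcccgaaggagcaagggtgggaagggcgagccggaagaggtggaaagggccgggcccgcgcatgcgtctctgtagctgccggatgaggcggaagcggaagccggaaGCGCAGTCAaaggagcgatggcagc
Nampt, chr12:32820085-32820384, plus strand: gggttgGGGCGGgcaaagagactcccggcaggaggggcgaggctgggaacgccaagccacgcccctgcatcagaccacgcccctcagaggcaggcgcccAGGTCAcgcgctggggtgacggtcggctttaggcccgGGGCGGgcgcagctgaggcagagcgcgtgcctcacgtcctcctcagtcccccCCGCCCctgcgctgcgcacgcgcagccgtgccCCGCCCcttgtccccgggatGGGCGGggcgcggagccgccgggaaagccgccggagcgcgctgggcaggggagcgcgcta
Sirt3, chr7:140882260-140882559, minus strand: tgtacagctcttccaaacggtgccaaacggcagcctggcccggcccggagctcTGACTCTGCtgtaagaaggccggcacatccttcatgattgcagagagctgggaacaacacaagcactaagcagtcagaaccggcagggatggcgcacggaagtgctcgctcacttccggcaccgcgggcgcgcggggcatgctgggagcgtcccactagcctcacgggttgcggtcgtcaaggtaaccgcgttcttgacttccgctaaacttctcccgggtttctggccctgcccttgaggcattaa

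The Nampt window held 5 GGGCGG boxes and 1 AGGTCA motif and was 76.3% G and C. The Sirt7 window held 1 GGGCGG box, at -214 from the start, and 1 antioxidant response element core, at 25. The Sirt3 window shown held 1 such core, at -197, and no GGGCGG box. Another Sirt3 start window, at 140881820 to 140882119 and not shown, held 4 GGGCGG boxes and no such core. Over 32851 windows of the same length, 35.7% held the GGGCGG (GC) box, 12.4% the antioxidant response core, 16.3% the AGGTCA motif, 14% the related receptor motif AGTTCA, 13.6% the TATA box and 7.15% the E-box. The circadian clock is known to act on Nampt through E-boxes, and those letters were not in this Nampt window. A match describes letters, not a bound site.

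The rest of NAD metabolism was read from gene lists, beside the 40.5% of all genes that were called. In the tryptophan route, which the liver uses to make NAD from the amino acid, 2 of 11 tested genes rose and 2 fell (median log2 fold change -0.02). Median-ratio scaling and length correction each gave 5 higher and 2 lower, and TPM gave 1 higher and 3 lower. Tdo2, tryptophan dioxygenase and the entry step, stood at 294, 272 and 473 FPKM in DDK livers, against 626, 942 and 825 in vehicle livers (log2 fold change -1.23 ± 0.23, limma adjusted p = 0.00369). Qprt, which turns quinolinate into nicotinic acid mononucleotide, the exit step towards NAD, stood at 40.0, 36.0 and 60.1 in DDK and 124, 166 and 156 in vehicle livers (-1.72 ± 0.20, adjusted p = 0.000679). The groups did not overlap for either gene, with DDK replicate 3 the nearest to vehicle. Kyat1, which diverts kynurenine to kynurenic acid, stood at 71.5, 63.1 and 67.1 in DDK and 26.2, 23.4 and 21.9 in vehicle livers (1.46 ± 0.12, adjusted p = 0.000224). Kyat3 and Aadat of the same list did not pass the test as deposited. Kyat3 averaged 69.5 FPKM in DDK and 70.7 in vehicle livers (-0.02, adjusted p = 0.913). Aadat averaged 37.8 in DDK and 40.7 in vehicle livers (-0.06, adjusted p = 0.806). A change of the kynurenic acid branch as a whole was not tested. Tdo2, Qprt and Kyat1 kept their calls under the 5 scalings and without each library in turn. Afmid, the formamidase of the second step, rose as well (0.74, adjusted p = 0.0183) and was named after its values were seen. Its call was lost under TPM (0.064), without a filter on low values (0.0632) and on leaving out DDK liver 1 (0.0572) or 2 (0.0813) or vehicle liver 2 (0.0575). Steps between them did not pass the test, among them Kmo with 155 ± 10.7 FPKM in DDK and 133 ± 28.4 in vehicle livers and Haao with 152 ± 15.9 in DDK and 119 ± 18.6 in vehicle livers. Ido1, the extrahepatic entry enzyme, was listed at 0 in all 6 livers.

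In the list of salvage and final steps, 1 of 7 tested genes rose and 3 fell as deposited. This balance turned to 3 higher and 2 lower after median-ratio scaling or quantile normalization and to 3 higher and 1 lower after length correction, and was 0 higher and 3 lower under TPM. Pnp, purine nucleoside phosphorylase, which releases nicotinamide from its riboside, stood at 11.9, 10.2 and 18.8 FPKM in DDK and 27.0, 24.1 and 28.7 in vehicle livers (log2 fold change -0.95, limma adjusted p = 0.00609). Nt5e, the ectonucleotidase CD73, fell (-0.99, adjusted p = 0.0117), a call lost after length correction, and so did Nt5c2 (-0.45, adjusted p = 0.0316), a call lost in 4 scalings and without DDK replicate 1 or 2 or vehicle replicate 2 or 3. Nmrk1, the nicotinamide riboside kinase, rose by 0.49 (adjusted p = 0.0488) and was named after its values were seen. This call was lost under TPM (0.205), without a filter on low values (0.105), with voom (0.0621), with no variance trend (0.0513) and on leaving out DDK liver 1 (0.192) or 2 (0.131) or vehicle liver 2 (0.108) or 3 (0.139). Nmnat1, which completes NAD in the nucleus, had 7.28 ± 0.262 FPKM in DDK and 6.72 ± 1.06 in vehicle livers, and Nadsyn1, which amidates the product of the NAPRT and QPRT routes, had 7.89 ± 0.805 in DDK and 5.9 ± 0.918 in vehicle livers, both without passing.

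Of 8 tested genes of NAD phosphorylation and transport, 0 rose and 4 fell, with 1 lower after median-ratio scaling. Nnt, the mitochondrial transhydrogenase that makes NADPH from NADH, stood at 10.3, 8.4 and 10.9 FPKM in DDK and 17.6, 21.8 and 25.6 in vehicle livers (log2 fold change -1.05 ± 0.17, limma adjusted p = 0.00197). Nadk, the cytosolic NAD kinase, fell by 0.60 on the log2 scale (adjusted p = 0.00588), a call lost after median-ratio scaling. Slc25a51, the mitochondrial NAD carrier, had 8.56, 9.14 and 8.67 FPKM in DDK and 12.6, 12.3 and 11.8 in vehicle livers (-0.44, adjusted p = 0.0197), a call lost in 4 of the 5 scalings and without DDK replicate 1 or 2 or vehicle replicate 2 or 3.

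Among NAD consumers other than sirtuins, 0 of 14 tested genes rose and 7 fell, but 2 rose and 3 fell after median-ratio scaling. Parp9, a mono-ADP-ribosyltransferase partner induced by interferon, stood at 6.6, 5.11 and 7.72 FPKM in DDK and 14.7, 18.4 and 16.4 in vehicle livers (log2 fold change -1.23, limma adjusted p = 0.00109). Parp14 fell by 0.78 (adjusted p = 0.00609). Cd38, the NAD glycohydrolase of immune and endothelial cells, stood at 2.9, 2.35 and 2.18 in DDK and 4.49, 3.98 and 4.74 in vehicle livers (-0.64, adjusted p = 0.00817), and this call was lost after quantile normalization and length correction. The macrophage marker sums given beside Nampt moved in the same direction, and their part in these genes was not tested.

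Genes around the methyl transfer of NNMT were mixed, with 1 of 17 higher and 5 lower, and 3 higher and 1 lower after median-ratio scaling. Gamt, which uses S-adenosylmethionine to make creatine, rose by 0.98 on the log2 scale (limma adjusted p = 0.0023). Mat2a, a methionine adenosyltransferase, fell by 0.66 (0.0143), a call lost after median-ratio scaling or length correction and without DDK replicate 2 or vehicle replicate 3. Mat1a, the main hepatic methionine adenosyltransferase, had 1208 ± 121 FPKM in DDK and 955 ± 228 in vehicle livers without passing. Of 3 tested enzymes that oxidize nicotinamide or its methylated form, including Aox3 and Cyp2e1, 0 passed limma in either direction, with Aox3 at 49.9 ± 4.28 FPKM in DDK and 68.1 ± 25.9 in vehicle livers (adjusted p = 0.217) and Cyp2e1 at 6105 ± 776 in DDK and 6595 ± 1034 in vehicle livers (0.677). After quantile normalization 1 of the 3 fell.

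Of 11 sirtuin regulators and partners, 2 rose and 2 fell, with 4 higher and 1 lower after quantile normalization or length correction and 1 higher and 3 lower under TPM. Rps19bp1, which encodes AROS, an activator of SIRT1, stood at 31.7, 31.5 and 33.8 FPKM in DDK and 24.1, 17.8 and 16.6 in vehicle livers (log2 fold change 0.72, limma adjusted p = 0.00629). Stk11, the kinase LKB1, rose by 0.52 (adjusted p = 0.0109, lost under TPM), while Prkaa2, the AMPK subunit it activates, fell by 0.91 (0.0124, lost without DDK replicate 2). Ppargc1a, the coactivator PGC-1 alpha, had 0.524 ± 0.0206 FPKM in DDK and 0.358 ± 0.0555 in vehicle livers without passing. In the clock list, whose BMAL1 and CLOCK proteins drive Nampt, 4 of 11 tested genes rose and 1 fell, with 6 higher and 0 lower after quantile normalization and 2 higher and 1 lower under TPM. Dbp stood at 130.2, 141 and 101 FPKM in DDK and 84.8, 59.1 and 59.7 in vehicle livers (0.87, adjusted p = 0.00564), Per3 rose by 0.84 (0.00589) and Tef by 0.59 (0.0145, lost under TPM and without DDK replicate 1 or 2). The labels give no hour of tissue collection. Arntl, which encodes BMAL1, was too low to be tested, with 0.0859 ± 0.073 FPKM in DDK and 0.144 ± 0.0452 in vehicle livers.

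Genes whose proteins are known sirtuin substrates were read beside the tilt of the whole table, in which 30.3% of genes were lower and 10.2% higher as deposited. Of 14 tested SIRT3 substrate genes, 2 rose and 7 fell (4 and 2 after median-ratio scaling). Sdha, the subunit named in the title, stood at 102, 99.3 and 115 FPKM in DDK livers, against 173, 246 and 233 in vehicle livers, and Idh2, mitochondrial isocitrate dehydrogenase, at 18.8, 19.0 and 17.6 in DDK and 40.4, 34.0 and 42.8 in vehicle livers (log2 fold change -1.04, limma adjusted p = 0.000911). Acadl, an acyl-CoA dehydrogenase, fell by 0.49 (0.00872), a call lost after median-ratio scaling. Of 9 tested SIRT5 substrate genes 1 rose and 5 fell (1 and 2 after median-ratio scaling or length correction). Sod1, superoxide dismutase, rose by 0.91 (adjusted p = 0.00862), and Hadha of fatty acid oxidation (-0.83, 0.00206) and Pkm, pyruvate kinase (-1.08, 0.0063), fell. Of 9 genes that SIRT6 is known to repress or act on, 0 rose and 6 fell, and 1 rose and 5 fell after median-ratio scaling. They included Ldha, lactate dehydrogenase, with 156 ± 16.0 FPKM in DDK and 309 ± 30.2 in vehicle livers (-0.98, adjusted p = 0.00133), Srebf1, the lipogenic factor (-1.22, 0.00154), and Pfkl, liver phosphofructokinase (-0.88, 0.00357).

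**Figure D4:**
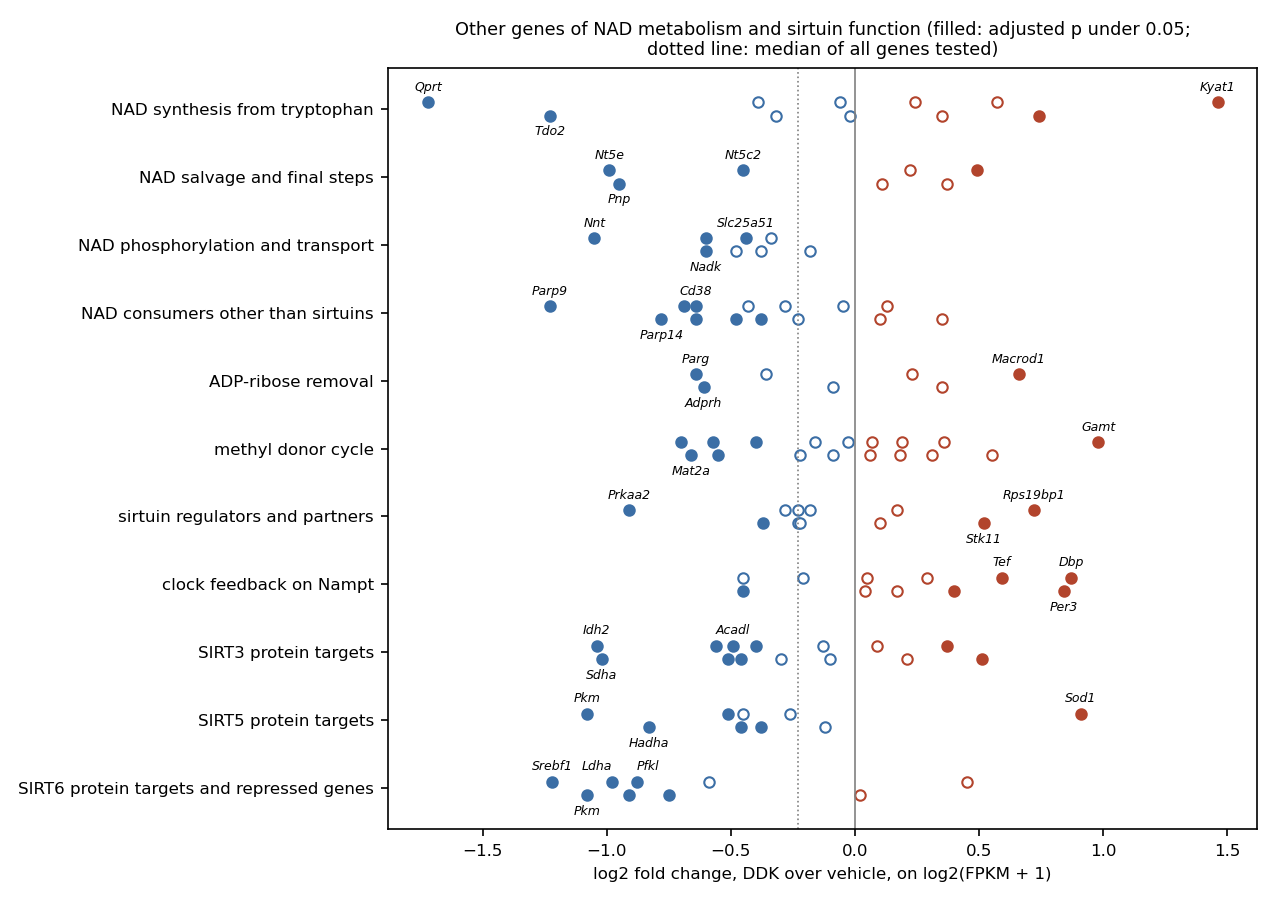
Log2 fold change, DDK over vehicle, of the tested genes of 11 lists around NAD and sirtuins, each point a gene, filled where the adjusted p is under 0.05, with a dotted line at the median of all genes tested, -0.23. Qprt at -1.72 and Kyat1 at 1.46 have the lowest and the highest value of the tryptophan list.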

How the data were processed

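Liver RNA-seq of 6 mice was deposited by the authors as 1 table of FPKM values per gene symbol. Per the submitters' processing notes the build was GRCm38 (mm10), and no aligner, counter or annotation is named in the labels. Per the labels' protocols, libraries were made from 1.3 µg of total RNA with an NEBNext Ultra RNA kit. Columns were matched to mice by library name and grouped by title. Labels name separate mice as replicates.

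Whole library totals and gene lengths were recovered from the FPKM values, and 99.99% of values of the 16573 symbols above 0 were then whole fragments within 0.01. In each library 3 fragments, the limit that a count of 0 allows, come to an FPKM of 0.0415 to 0.0564 for a gene of 2 kb, which covers counting error only. limma 3.58.1 (R 4.3.3) with a variance trend compared DDK with vehicle on log2(FPKM + 1). SDs are over 3 livers, and fold changes carry SEs. Within-library ratios used exact permutation tests (scipy 1.17.1). The gene test was tested on simulated data.

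The 10 genes, the lists and the tests were chosen with earlier results of these data known. Named were the 10 genes and, from each other list, up to 3 genes with the smallest p past the threshold, or else 2 with the highest level. A gene that met this rule is not reported here. Other genes named were chosen after their values were seen. Alternatives were pseudocounts of 0.1 and 0.5, no filter or one at an FPKM of 1, 5 scalings, limma's voom on recovered fragments, weights per library, a block for the replicate number, no variance trend, robust moderation, thresholds of 0.01 and 0.1, and leaving out each library. The gene length correction subtracted a lowess curve (span 0.3). Positions are from GENCODE M21. The replicate numbers did not pair the mice.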

Additional observations from a re-analysis of the deposited data

How the results depend on the processing

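The count of genes past the threshold in limma moved from 4327 to 2033 at a threshold of 0.01 and lay between 2345 and 5478 when a library was left out, and that of the 10 genes moved from 4 to 1 (Nnmt) at 0.01 and lay between 1 and 6 without a library. It was 2345 and 1 without DDK replicate 2, 2774 and 1 without vehicle replicate 2, 2780 and 2 without DDK replicate 1, 2350 and 2 without vehicle replicate 3, and 5478 and 6 without vehicle replicate 1. Of the 10 genes, 4 were called in each of the 5 scalings, but TPM called Sirt2, Sirt5, Nampt and Nnmt, and the other 4 scalings called Sirt4, Sirt7, Naprt and Nnmt. Signs turned only for genes not called as deposited. Sirt1 stood at 0.08 after quantile normalization and at 0.08 after length correction. Median-ratio scaling put Sirt2 at 0.16 and Sirt5 at 0.02, quantile normalization at 0.04 and 0.05, and length correction at 0.10 and 0.05. Sirt3 stood at -0.19 and Sirt6 at -0.09 under TPM, and without a library Sirt3 ran from -0.05 to 0.13 and Sirt6 from -0.10 to 0.23, below 0 without DDK replicate 1 for both (Sirt6 -0.00103). The cause was not tested. limma-voom on recovered whole fragments called 4239 genes. With the replicate block 4134 genes and 3 of the 10 were called, and Nampt was not (adjusted p = 0.0527). The numbers share no stated litter or batch, and same-numbered livers correlated in their deviations by 0.141, -0.146 and 0.056. Of 35 other called genes named by the rule above, 28 kept the call without each library in turn and 22 under all 5 scalings. Afmid and Nmrk1, named after their values were seen, are not among these 35. Both lost the call under TPM and without DDK replicate 1 or 2 or vehicle replicate 2. In the within-library ratios, 5 to 8 genes had no overlap under the alternatives, beside the 6 reported. Sirt6 had the fewest fragments, and how much of its spread is counting error was not tested. When a library was left out, lower calls ran from 3 to 7 of 14 SIRT3 substrate genes and 2 to 6 of 9 SIRT5 substrate genes. They ran from 3 to 7 of 13 or 14 consumers tested and from 1 to 5 of 17 methyl donor genes. For transport genes they were 2 to 5 of 8 and for acylation genes 2 to 7 of 12. Regulators had 0 to 4 lower of 10 or 11 tested. Tryptophan genes had 2 to 4 of 11 lower and salvage genes 2 to 3 of 7. ADP-ribose genes had 0 to 3 of 7 lower and SIRT6 genes 5 to 6 of 9. Higher calls ran from 2 to 4 of 11 clock genes. Leaving out DDK replicate 1 or 2 or vehicle replicate 3 gave most of the low ends, and leaving out vehicle replicate 1 most of the high ends.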

Other observations

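Genes that set protein acylation and acyl-CoA supply, the substrate side of the sirtuins, moved in both directions. As deposited, 2 of 12 were higher and 4 lower in DDK livers, beside 10.2% higher and 30.3% lower of all genes tested. Median-ratio scaling gave 3 higher and 1 lower, and TPM gave 1 higher and 7 lower. Kat2b, the acetyltransferase PCAF, stood at 7.02, 6.2 and 8.67 FPKM in DDK livers, against 11.6, 20.4 and 17.5 in vehicle livers (log2 fold change -1.05 ± 0.20, limma adjusted p = 0.00434). Bloc1s1, which encodes GCN5L1, a component of mitochondrial acetylation, stood at 195, 203 and 154 in DDK and 138, 80.7 and 95.3 in vehicle livers (0.83 ± 0.20, adjusted p = 0.01), a call lost after length correction, where the change was 0.23. Crat, carnitine acetyltransferase, which buffers acetyl-CoA, fell by 0.72 (adjusted p = 0.012), a call lost after median-ratio scaling and length correction. Sirt3 did not separate the groups, as given above.

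Of 7 tested enzymes that remove or recycle ADP-ribose, 1 rose and 2 fell as deposited, beside 10.2% higher and 30.3% lower of all genes. Median-ratio scaling gave 3 higher and 1 lower, quantile normalization 3 higher and 0 lower, and TPM 1 higher and 4 lower. Macrod1, a mitochondrial ADP-ribosylhydrolase, stood at 38.9, 37.4 and 30.4 FPKM in DDK and 24.8, 18.8 and 22.7 in vehicle livers (log2 fold change 0.66, limma adjusted p = 0.00824). Parg (-0.64, adjusted p = 0.0179) and Adprh (-0.61, 0.0236) fell, with calls lost without DDK replicate 1 or 2 or vehicle replicate 2 or 3. Quantile normalization also ended both calls, as did length correction for Parg and median-ratio scaling for Adprh.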
